A study of Arabidopsis thaliana with 12 samples.

Results

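A list of gene identifiers, set with earlier results of these data known, gave the 41 genes described here. These are nuclear genes of the photosynthetic machinery. They comprise 5 genes of the minor photosystem II antenna (LHCB4 to LHCB6), 6 of the photosystem I antenna (LHCA1 to LHCA6), 10 photosystem II subunit genes (PSB), 12 photosystem I subunit genes (PSA), 4 genes of electron carriers and the cytochrome complex (PET) and the 4 genes of the Rubisco small subunit (RBCS). All 41 are among the 20972 genes with values, and all 41 passed the filter of a mean normalized count of at least 10, which left 19485 genes for testing. Wild-type Col seedlings of Arabidopsis, 5 days old, grew in liquid medium under constant light. Seedlings given distilled water were sampled at 0 min, and seedlings given 1 mM H2O2 were sampled at 2, 4 and 8 min, with 3 replicates of about 100 to 150 whole seedlings at each time. The experiment was repeated to give the replicates, but separate cultures are not named, so p-values measure only the spread between these samples, which may be technical. Water was given only at 0 min in the samples analysed, so H2O2 and the time since liquid was added cannot be told apart.

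Photosystems I and II are pigment-protein complexes of the thylakoid membrane. Light is absorbed by antenna proteins that bind chlorophyll, and the energy is passed to reaction centres whose core proteins are encoded in the chloroplast. The antenna proteins and many of the smaller subunits are encoded in the nucleus, translated in the cytosol and imported. Plastocyanin and ferredoxin carry electrons to and from photosystem I, and Rubisco, whose small subunit is also nuclear, fixes CO2 in the stroma. Light-regulated promoters of such genes often hold a G-box, bound by bZIP and bHLH factors such as HY5 and the PIFs, and an I-box.

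The upstream sequences of 7 members are shown because they include all 4 RBCS genes, among them the members with the highest level and the highest log2 difference, and 3 members of the antenna and photosystem II groups that carry a G-box. Each is the 250 bases before the annotated start of the gene in TAIR10.1, as RefSeq gives it, read 5′ to 3′ on the strand of the gene. Capitals mark a G-box (CACGTG), an I-box (GATAAG, or CTTATC on the other strand) or a CCA1 site (AAAAATCT, or AGATTTTT on the other strand).
RBCS1A (chr1:25049668-25049917, minus strand): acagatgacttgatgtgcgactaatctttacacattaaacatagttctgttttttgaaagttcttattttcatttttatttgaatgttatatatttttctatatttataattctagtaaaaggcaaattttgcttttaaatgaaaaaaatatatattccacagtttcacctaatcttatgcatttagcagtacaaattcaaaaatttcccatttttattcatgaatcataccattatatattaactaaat
RBCS1B (chr5:15385321-15385570, minus strand): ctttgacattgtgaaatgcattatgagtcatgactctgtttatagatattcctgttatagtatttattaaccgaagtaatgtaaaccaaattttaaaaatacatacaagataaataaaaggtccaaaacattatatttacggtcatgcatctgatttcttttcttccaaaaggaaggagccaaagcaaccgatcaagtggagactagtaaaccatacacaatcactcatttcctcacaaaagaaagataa
RBCS2B (chr5:15382072-15382321, minus strand): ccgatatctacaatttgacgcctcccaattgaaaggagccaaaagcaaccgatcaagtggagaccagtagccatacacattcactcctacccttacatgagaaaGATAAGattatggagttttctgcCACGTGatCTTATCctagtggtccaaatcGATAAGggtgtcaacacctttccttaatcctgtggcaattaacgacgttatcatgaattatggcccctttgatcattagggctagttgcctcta
RBCS3B (chr5:15378643-15378892, minus strand): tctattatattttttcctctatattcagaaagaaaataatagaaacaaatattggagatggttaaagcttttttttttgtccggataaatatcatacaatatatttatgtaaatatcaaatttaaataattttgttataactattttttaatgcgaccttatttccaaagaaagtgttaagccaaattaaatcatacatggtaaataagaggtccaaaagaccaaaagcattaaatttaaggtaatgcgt
LHCA4 (chr3:17495034-17495283, minus strand): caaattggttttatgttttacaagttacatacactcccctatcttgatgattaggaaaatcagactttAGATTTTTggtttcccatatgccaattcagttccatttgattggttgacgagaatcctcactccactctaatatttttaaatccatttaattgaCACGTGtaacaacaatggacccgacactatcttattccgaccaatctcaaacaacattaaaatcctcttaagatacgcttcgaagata
LHCB4.1 (chr5:208616-208865, plus strand): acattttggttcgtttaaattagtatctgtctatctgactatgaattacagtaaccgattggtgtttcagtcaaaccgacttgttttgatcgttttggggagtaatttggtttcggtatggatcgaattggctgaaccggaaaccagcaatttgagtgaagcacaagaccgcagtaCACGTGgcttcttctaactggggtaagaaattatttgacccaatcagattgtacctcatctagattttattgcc
PSBQ2 (chr4:2673244-2673493, minus strand): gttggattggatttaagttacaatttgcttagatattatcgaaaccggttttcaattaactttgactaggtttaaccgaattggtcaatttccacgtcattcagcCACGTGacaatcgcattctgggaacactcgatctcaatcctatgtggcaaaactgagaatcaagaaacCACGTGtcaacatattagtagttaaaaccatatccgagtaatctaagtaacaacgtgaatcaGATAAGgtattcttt
Among the RBCS genes, RBCS2B had 1 G-box and 3 I-boxes in this window, and the windows of the other 3 held neither. Each window is set by the annotated start, so the windows need not cover the same part of each promoter. That of RBCS1B ends in gataa, and letters past its annotated start were not scanned. Whether the other RBCS genes lack these boxes nearby therefore cannot be read from the windows. On both strands, the G-box was found upstream of 8 of the 41 members and of 7.43% of 20731 genes with such a window. The I-box was found upstream of 11 of 41 members and of 12.5% of all windows. The W-box (TTGACC), which WRKY factors bind, was found upstream of 5 of 41 members and of 12.3% of all windows. The CCAAT box (CCAAT) was found upstream of 23 of 41 members and of 47.3% of all windows. These matches describe letters in a window and were not tested as binding sites.

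The members include some of the most abundant transcripts in the seedlings. Between 13558388 and 26618274 reads per library fell on genes, and the 41 members took 6.97% to 7.81% of them in water, and 6.53% to 6.74%, 6.52% to 7.32% and 6.56% to 7.19% of them in H2O2 at 2, 4 and 8 min. Levels are compared between genes as RPKM, the reads per kb of transcript scaled to the total reads of the library. On this scale RBCS1A was the highest member, at 7344 ± 535 at 0 min (SD, n = 3), and ranked 2 among all genes with a gene model. LHCA4, at 4017 ± 558, RBCS3B, at 3411 ± 208, and PSBR, at 3129 ± 129, followed. RBCS1A stood apart from the rest by more than the SDs. LHCA4 and RBCS3B, RBCS3B and PSBR, PSBR and LHCA1, and LHCA1 and PSBO1, which came next, were neighbours that the SDs do not separate. At the other end stood LHCB4.3, at 7.99 ± 1.71, LHCA6, at 57.0 ± 8.52, LHCA5, at 127 ± 5.48, and PETE1, at 156 ± 9.90. The annotated RBCS1B transcript, at 1894 bases, is longer than those of the other RBCS genes, 935 to 1268 bases, which lowers its value on this scale.

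**Figure D1:**
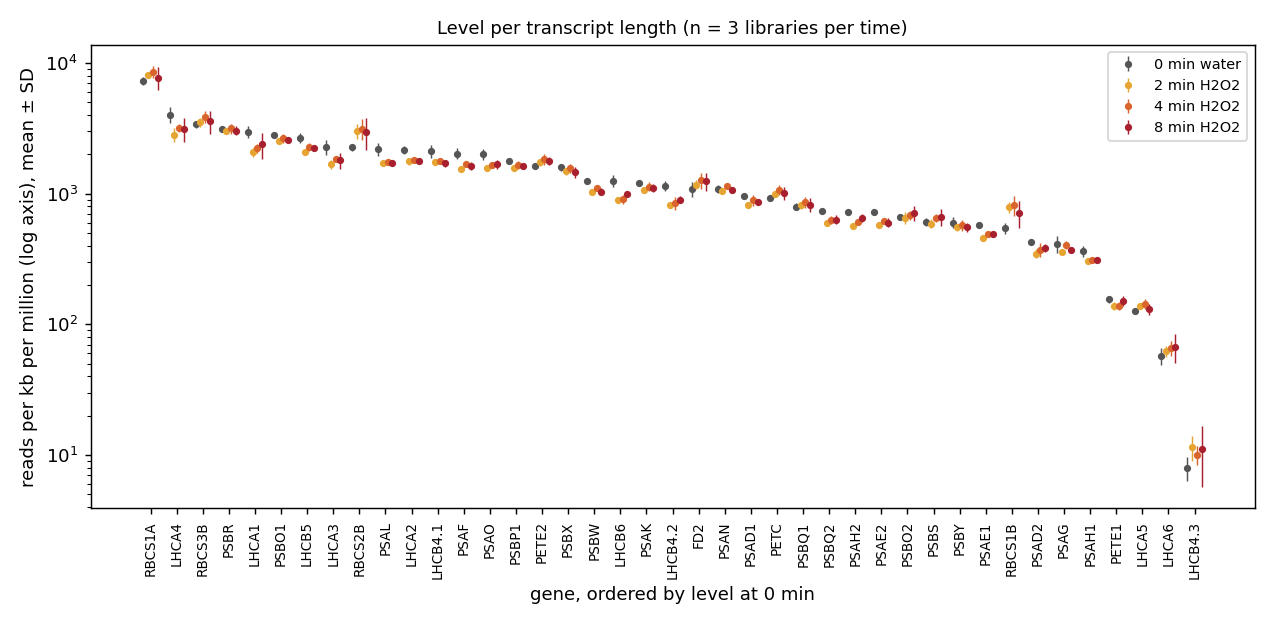
Level of each member per transcript length (RPKM, log axis; points are means of 3 libraries and bars are SD), ordered by the level at 0 min. RBCS1A stood highest, at 7344 ± 535 at 0 min, and LHCB4.3 lowest, at 7.99 ± 1.71.

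Before the members, a list of early H2O2-response genes is given. It was chosen with earlier results of these data known, so its counts cannot serve as a check of the treatment. Of 10 genes named for it, 8 had values. By limma, 0 of the 8 passed at 2 min, 6 were higher at 4 min and all 8 at 8 min. Of all genes tested, 0.0%, 0.754% and 1.29% were called higher at 2, 4 and 8 min. DIC2, a mitochondrial dicarboxylate carrier, had log2 differences of 2.27 at 4 min and 3.34 at 8 min (adjusted p = 0.000298 and 6.55e-06 from limma), and the zinc finger gene ZAT10 had 2.64 and 2.96 (adjusted p = 0.000201 and 2.28e-05 from limma).

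For the photosystem and RBCS genes, the antenna and photosystem I transcripts were mostly below their level in water at 2, 4 and 8 min of H2O2, photosystem II transcripts lay closer to it, and RBCS transcripts had log2 differences above 0. No single member passed the threshold. With an adjusted p under 0.05 from limma over all genes tested, 0 of 41 members passed at 2, 4 or 8 min against 0 min. Over all genes tested, 0.0% were called higher and 0.0% lower at 2 min, 0.754% higher and 0.0565% lower at 4 min, and 1.29% higher and 0.0513% lower at 8 min. At an unadjusted p under 0.05 from limma, 1 member was higher and 19 were lower at 2 min, against 6.36% and 5.68% of all genes tested. At 4 min 2 members were higher and 13 lower, against 8.6% and 7.02%, and at 8 min 0 were higher and 17 lower, against 8.03% and 5.69%. Median log2 differences of the 41 members were -0.19, -0.10 and -0.16 after 2, 4 and 8 min, where those of all genes tested were -0.00, -0.01 and -0.00. Without replicate 3 at 4 min the median of the members at 4 min was -0.02. With the trend in GC content removed 7 members were lower at 4 min at an unadjusted p under 0.05 from limma. The share of all genes at that threshold after this removal is not given here. The comparisons at 2, 4 and 8 min share the same water libraries. On reads recovered from the values, the quasi-likelihood test of edgeR called 0 members, where it called 0.0% of all genes higher and 0.0% lower at 2 min, 0.667% and 0.0411% at 4 min, and 1.34% and 0.0616% at 8 min. The same reads gave other counts in DESeq2. It called 13 members lower at 2 min, where it called 0.272% of all genes higher and 0.216% lower. At 4 min it called 1 member higher, RBCS1B, and 6 lower, against 1.89% and 0.642%, and at 8 min it called 0 higher and 8 lower, against 1.92% and 0.4%. Of the 42 genes that DESeq2 called lower at 2 min, 13 (31.0%) were members, which is 31.7% of the members. At 4 min 6 of 125 (4.8%) were, which is 14.6% of the members, and at 8 min 8 of 78 (10.3%) were, which is 19.5%.

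**Figure D2:**
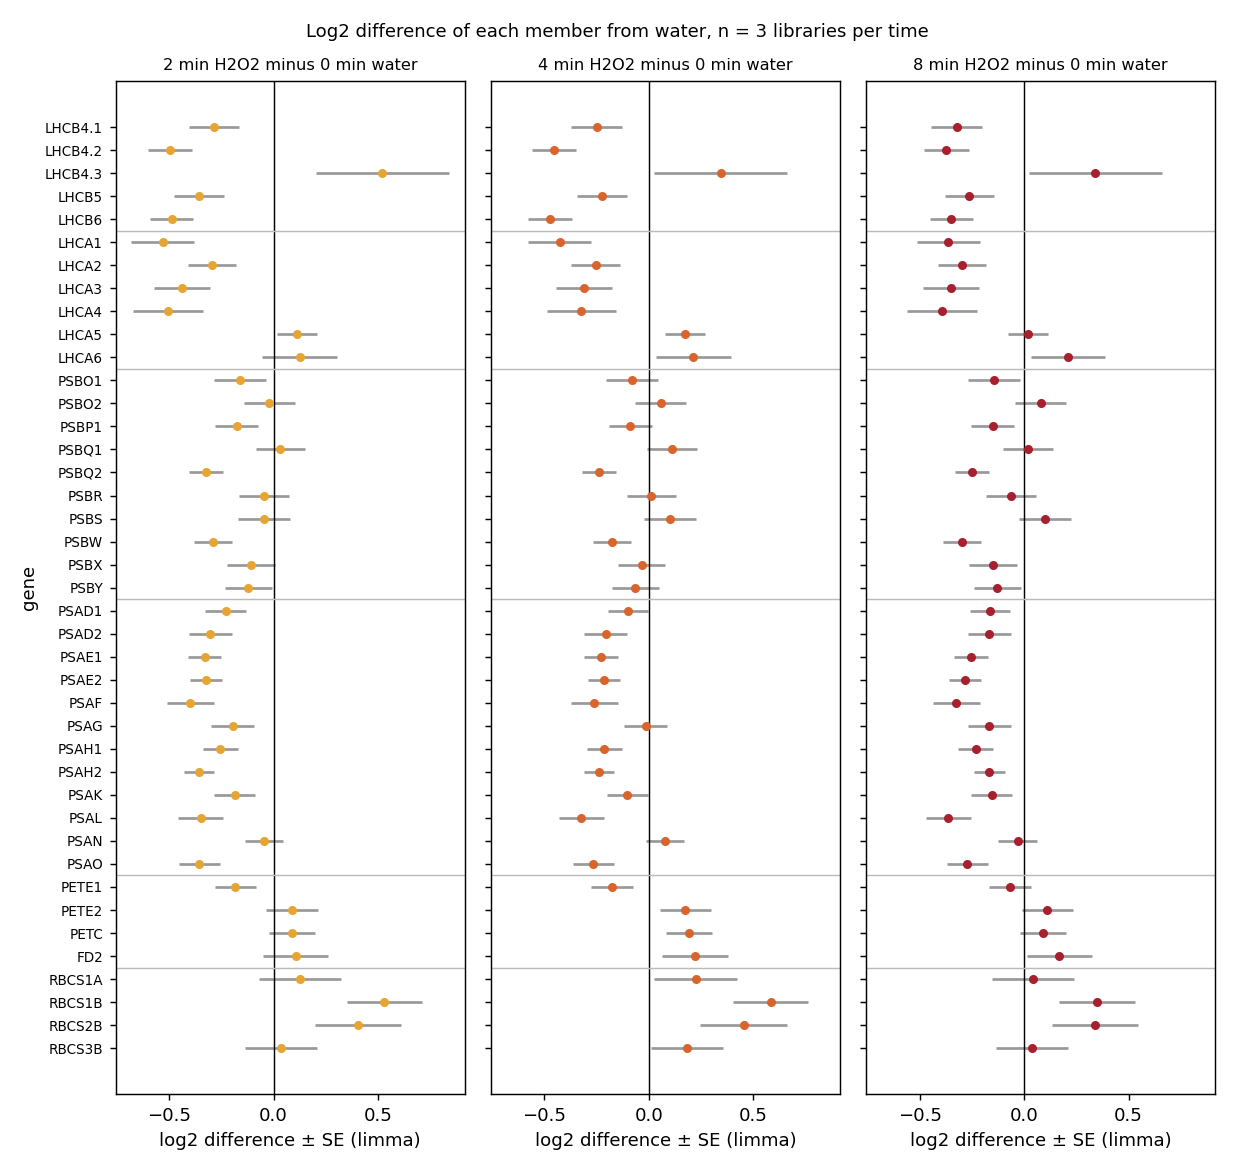
Log2 difference of each member between H2O2 and 0 min water at 2, 4 and 8 min (points), with the standard error from limma (bars), grouped by family from the minor LHCB genes at the top to the RBCS genes at the bottom. Antenna and PSA points lay mostly left of 0, down to -0.53 for LHCA1 at 2 min, and RBCS points lay right of 0, up to 0.58 for RBCS1B at 4 min.

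Counted by whether libraries overlap, all 3 libraries at 2 min were below all 3 water libraries for 22 of 41 members, against 9.24% of all genes tested. The count was 13 at 4 min, against 9.5%, and 16 at 8 min, against 8.23%. All 3 were above the water libraries for 2 members at 2 min, 3 at 4 min and 0 at 8 min, against 9.83%, 10.5% and 8.56%. For 11 members all 9 H2O2 libraries lay below all 3 water libraries, against 2.26% of all genes tested: LHCB4.1, LHCB4.2, LHCB6, LHCA2, PSBQ2, PSAE1, PSAE2, PSAF, PSAH2, PSAL and PSAO. The count in the other direction was 0, against 3.04%. The water library of replicate 2 was the highest of all 12 for most antenna genes. Without replicate 1 in water the count of members with all H2O2 libraries below was 17, against 5.45% of all genes tested. Without replicate 2 in water it was 11, against 4.99% of all genes tested, but the members lower at an unadjusted p under 0.05 from limma numbered 15 at 2 min, 4 at 4 min and 7 at 8 min. Without replicate 3 at 4 min 6 were lower at 4 min, and without replicate 3 at 8 min 7 were lower at 8 min. The shares of all genes at this threshold in these fits are not given here. These smaller counts therefore cannot be read as particular to the members.

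**Figure D3:**
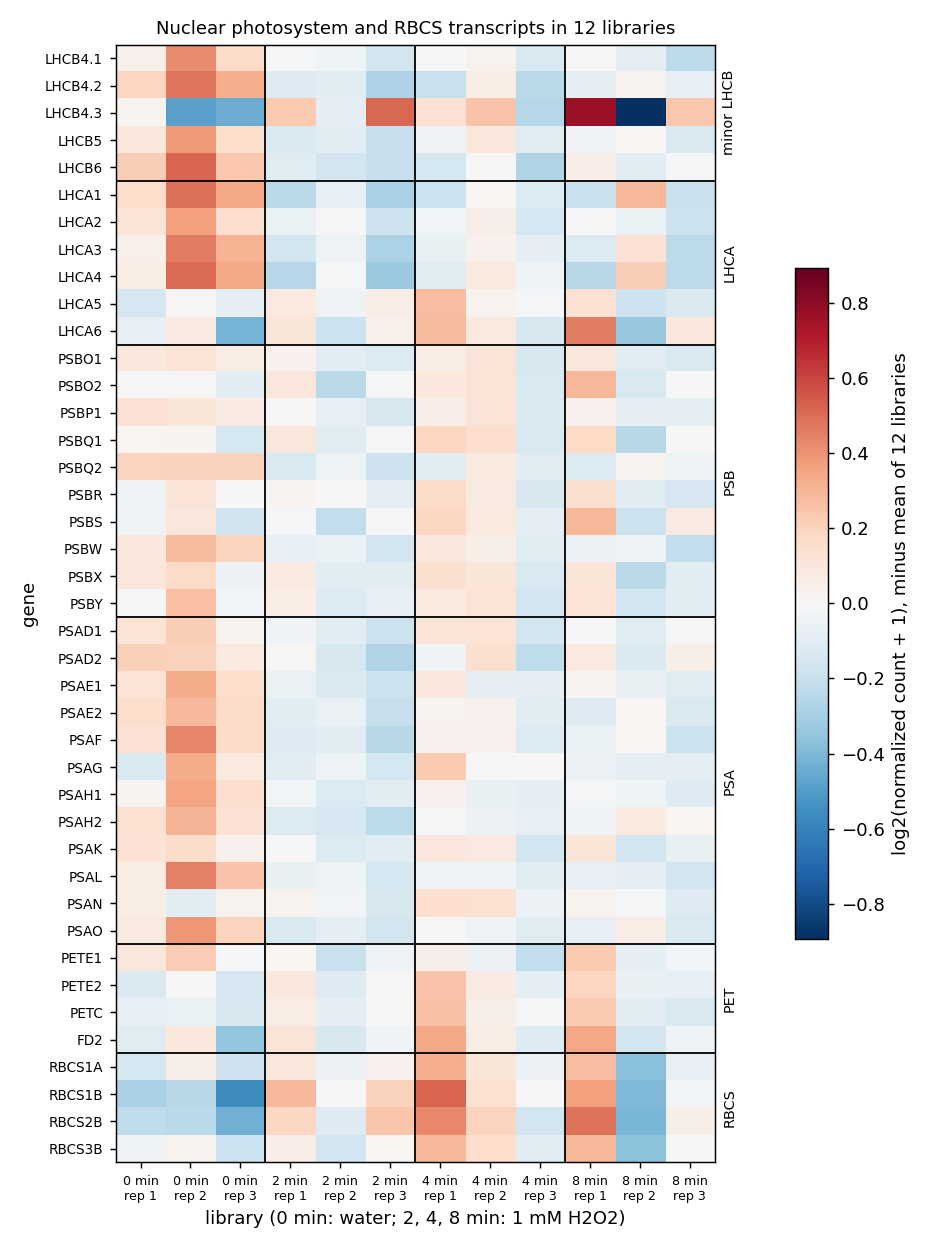
Log2(normalized count + 1) of the 41 members (rows, grouped by family) in the 12 libraries (columns, by time and replicate), minus the mean of the 12 libraries for each gene. In 11 of the 41 rows all 3 water columns are above all 9 H2O2 columns, and replicate 2 at 8 min is lowest in the RBCS1A and RBCS3B rows.

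The photosystem I antenna is formed mainly by LHCA1 to LHCA4, which dock to the core as dimers, while LHCA5 and LHCA6 are minor proteins that link photosystem I to the NDH complex of cyclic electron flow. LHCA1 (AT3G54890, chr3:20339504-20341176) had 54975, 69161 and 62219.7 normalized counts in water, 41706, 46851 and 40148 after 2 min, 43118, 49873 and 45219 after 4 min and 42946, 60483 and 42795 after 8 min of H2O2. The libraries at 2 and 4 min lay below those in water, and at 8 min replicate 2 overlapped with them. Its log2 difference from water, the lowest of any member at 2 min, was -0.53, -0.43 and -0.36 after 2, 4 and 8 min (standard error 0.15, adjusted p = 0.232, 0.197 and 0.306 from limma). LHCA4 (AT3G47470, chr3:17493343-17495033), the most abundant LHCA transcript, had 76903, 104458 and 92825 normalized counts in water, 61362, 72904 and 58371 after 2 min, 68112, 78112 and 71559 after 4 min and 61890.1, 85517 and 62271 after 8 min of H2O2. It lay below water without overlap at 2 min only. Differences from water on the log2 scale were -0.50, -0.32 and -0.39 after 2, 4 and 8 min (standard error 0.17, adjusted p = 0.268, 0.371 and 0.319 from limma). LHCA2 had log2 differences of -0.29, -0.25 and -0.30 after 2, 4 and 8 min, and LHCA3 had -0.44, -0.31 and -0.35 after 2, 4 and 8 min. LHCA5 had 0.11, 0.17 and 0.02 after 2, 4 and 8 min, and LHCA6 had 0.13, 0.21 and 0.21 after 2, 4 and 8 min, with libraries that overlapped those in water at each time. Of the 1359 stretches of 50 bases in the LHCA2 transcript, 119 also occur in that of AT5G28450, so its reads are uncertain.

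The minor antenna proteins LHCB4 (CP29), LHCB5 (CP26) and LHCB6 (CP24) connect the photosystem II core to the main antenna trimers. Of the 5 genes, LHCB4.1, LHCB4.2, LHCB5 and LHCB6 were below their level in water at each time, with the exception of LHCB5 after quantile normalization. LHCB6 (AT1G15820, chr1:5446462-5447880) had 24625, 30299 and 24929 normalized counts in water, 19607, 18810.4 and 18267 after 2 min, 18910.1, 21042 and 17486 after 4 min and 21988, 19693 and 20828 after 8 min of H2O2. Every H2O2 library lay below every water library. The log2 difference was -0.49, -0.47 and -0.35 after 2, 4 and 8 min (standard error 0.10, adjusted p = 0.164, 0.0555 and 0.151 from limma). Its transcript holds 1155 stretches of 50 bases, of which 72 are found on the opposite strand in AT1G05207 and 54 in AT1G15810. Whether counting used strand is not given in the sources used here, so reads of such pairs cannot be told apart. LHCB4.2, the CP29 gene on chromosome 3, had 21860.2, 26679.7 and 23975 normalized counts in water, 17666, 17856 and 15800.0 after 2 min, 16700.1, 20073 and 16214 after 4 min and 18140.0, 19567 and 18182 after 8 min of H2O2, again without overlap. Its log2 difference was -0.50, -0.45 and -0.37 after 2, 4 and 8 min (standard error 0.11, adjusted p = 0.164, 0.0641 and 0.132 from limma). At 4 min the adjusted p of both genes passed under several alternatives: after quantile normalization limma gave 0.00905 for LHCB6 and 0.037 for LHCB4.2, and with the same total per library 0.0268 and 0.045. LHCB5 (AT4G10340, chr4:6408007-6409849), the most abundant of the 5, had 60016, 73038 and 62826 normalized counts in water, 51414, 52400.4 and 48691 after 2 min, 54893, 60193 and 52246 after 4 min and 54919, 56930.1 and 51091 after 8 min of H2O2. Its log2 difference was -0.36, -0.22 and -0.26 after 2, 4 and 8 min (standard error 0.12, adjusted p = 0.273, 0.385 and 0.351 from limma). After quantile normalization it was 0.0010 at 2 min and 0.0716 at 4 min, so its direction depended on the scaling. LHCB4.3, a CP29 gene whose protein is known from high-light antenna in Arabidopsis, stood apart from these 4: it had 185 ± 38.3 normalized counts in water, 266 ± 54.7 after 2 min, 234 ± 41.4 after 4 min and 258 ± 133 after 8 min of H2O2 (SD, n = 3 each), with log2 differences of 0.52, 0.34 and 0.34 after 2, 4 and 8 min. Its reads numbered 143 to 370 per library and its libraries overlapped those in water.

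The nuclear PSA genes encode the stromal side of photosystem I, where PSAD and PSAE dock ferredoxin. They also encode PSAF and PSAN, which bind plastocyanin on the lumenal side, and the subunits PSAG, PSAH, PSAK, PSAL and PSAO. All 12 were below water in log2 difference at 2 min, 11 at 4 min and all 12 at 8 min, with medians of -0.31, -0.21 and -0.20. Of all genes tested, 49.9%, 47.8% and 49.0% were above water at 2, 4 and 8 min. All 3 H2O2 libraries were below all 3 water libraries for 10 of 12 at 2 min, 6 at 4 min and 8 at 8 min, against 9.24%, 9.5% and 8.23% of all genes tested. PSAL (AT4G12800, chr4:7521257-7522761), the subunit that binds the LHCII antenna in state transitions, had 36117, 47126 and 41106 normalized counts in water, 32848, 33474 and 30869.9 after 2 min, 33391, 33440.3 and 32004 after 4 min and 32809, 32579 and 30771 after 8 min of H2O2. All 9 H2O2 libraries were below the lowest water library. Its log2 difference was -0.35, -0.32 and -0.36 after 2, 4 and 8 min (standard error 0.11, adjusted p = 0.25, 0.179 and 0.146 from limma). At 2 min the log2 differences of the PSA genes ran from -0.40 for PSAF to -0.05 for PSAN. PSAH2, which also takes part in docking of LHCII, had 8912 ± 639 normalized counts in water, 6954 ± 276 after 2 min, 7549 ± 174 after 4 min and 7934 ± 329 after 8 min of H2O2 (SD, n = 3 each) and log2 differences of -0.36, -0.24 and -0.17 after 2, 4 and 8 min. PSAH2 shares 125 of its 653 stretches of 50 bases with ROPGEF11 on the opposite strand, and PSAH1 shares 615 of 1251 with ROPGEF13. Also on the opposite strand, PSAG shares 430 of 731 with AT1G55673 and PSAE1 218 of 749 with AT4G28755. The reads of these genes are uncertain for that reason. Shares of paralogs overlapped between groups: PSAE1 was 49.2% to 53.8% of the 2 PSAE genes in H2O2 libraries and 50.8% to 52.0% in water, and PSAD1 was 72.1% to 75.2% of the 2 PSAD genes in H2O2 libraries and 71.9% to 73.3% in water.

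The PSB genes encode the oxygen-evolving complex (PSBO, PSBP, PSBQ), the photoprotective PSBS and small subunits. They were closer to water, with median log2 differences of -0.11, -0.05 and -0.14 at 2, 4 and 8 min. PSBR (AT1G79040, chr1:29735952-29737009), the most abundant, had 41016, 45831 and 42371 normalized counts in water, 42943, 42237 and 39903 after 2 min, 47585, 44704 and 38393 after 4 min and 46612, 39334 and 38124 after 8 min of H2O2, and its groups overlapped at each time. Log2 differences of PSBR were -0.05, 0.01 and -0.06 after 2, 4 and 8 min (standard error 0.12, adjusted p = 0.92, 0.974 and 0.861 from limma). PSBQ2 had the lowest log2 difference among the genes of the oxygen-evolving complex at each time, with 14997, 15091 and 15116 normalized counts in water, 11881, 12711 and 11532 after 2 min, 12288, 13916 and 12177 after 4 min and 12028, 13368 and 12672 after 8 min of H2O2. No H2O2 library reached a water library, which varied little among themselves. Its log2 difference was -0.32, -0.24 and -0.25 after 2, 4 and 8 min (standard error 0.08, adjusted p = 0.221, 0.184 and 0.19 from limma). Its paralog PSBQ1 had log2 differences of 0.03, 0.11 and 0.02 after 2, 4 and 8 min, and the share of PSBQ1 among the 2 genes was 47.4% to 57.4% in H2O2 libraries and 45.8% to 49.1% in water. PSBW, a small photosystem II subunit, had -0.29, -0.18 and -0.30 after 2, 4 and 8 min, and PSBS had -0.05, 0.10 and 0.10 after 2, 4 and 8 min.

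The 4 PET genes encode the plastocyanins PETE1 and PETE2, the Rieske protein PETC and ferredoxin FD2. PETE2, PETC and FD2 were above water in log2 difference at each time and PETE1 was below. PETE2 (AT1G20340, chr1:7042046-7043392), the main plastocyanin transcript, had 37511, 41091 and 37068 normalized counts in water, 43841, 37873 and 41335 after 2 min, 49125, 43168 and 38779 after 4 min and 46912, 39247 and 39138 after 8 min of H2O2, with overlap between groups. Log2 differences of PETE2 were 0.09, 0.18 and 0.11 after 2, 4 and 8 min (standard error 0.12, adjusted p = 0.83, 0.513 and 0.734 from limma). PETE2 made up 95.0% to 95.8% of the 2 plastocyanin genes in H2O2 libraries and 94.4% to 94.7% in water, which did not overlap.

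RBCS1A lies alone on chromosome 1, while RBCS1B, RBCS2B and RBCS3B lie in a row within 8.33 kb of chromosome 5. All 4 encode the small subunit of Rubisco and had log2 differences above 0 at each time with all libraries and the deposited scaling, though none passed. RBCS1A was at 0.0000 after quantile normalization, which gave it the same value in every library, and RBCS1A and RBCS3B lay on either side of 0 when single libraries were left out. RBCS1A (AT1G67090, chr1:25048158-25049667) had 156247, 181247 and 153256 normalized counts in water, 187202, 168251 and 179054 after 2 min, 218160.0, 188450.0 and 168084 after 4 min and 211446, 134848 and 165883 after 8 min of H2O2. The groups overlapped, and at 8 min the 3 libraries held both the lowest and nearly the highest value of the series. Log2 differences of RBCS1A were 0.13, 0.22 and 0.04 after 2, 4 and 8 min (standard error 0.20, adjusted p = 0.852, 0.615 and 0.952 from limma). RBCS1B (AT5G38430, chr5:15383167-15385320) had the highest log2 difference of any member at each time. It had 19001, 19535 and 15691 normalized counts in water, 28320.3, 23166 and 26757 after 2 min, 33296, 25440.0 and 23099 after 4 min and 29907, 17647 and 22748 after 8 min of H2O2. All libraries at 2 and 4 min lay above those in water, and replicate 2 at 8 min did not. The log2 difference was 0.53, 0.58 and 0.35 after 2, 4 and 8 min (standard error 0.18, adjusted p = 0.279, 0.152 and 0.422 from limma). RBCS2B (AT5G38420, chr5:15380907-15382071) had 39161, 38791 and 34110.5 normalized counts in water, 52107, 42345 and 54359.6 after 2 min, 61722, 52751 and 40872 after 4 min and 64212, 34489 and 47548 after 8 min of H2O2, and here too all libraries at 2 and 4 min lay above those in water and replicate 2 at 8 min did not. The log2 difference was 0.40, 0.45 and 0.34 after 2, 4 and 8 min (standard error 0.21, adjusted p = 0.461, 0.31 and 0.494 from limma). RBCS3B (AT5G38410, chr5:15376988-15378642) had 73922, 77328 and 66179 normalized counts in water, 78869.9, 67253 and 76540.3 after 2 min, 92386, 84305 and 70914 after 4 min and 92945, 58497 and 75552 after 8 min of H2O2, with overlap at each time. Log2 differences of RBCS3B were 0.03, 0.18 and 0.04 after 2, 4 and 8 min (standard error 0.17, adjusted p = 0.965, 0.645 and 0.948 from limma). Without replicate 2 at 8 min, all H2O2 libraries were above all water libraries for RBCS1B and RBCS2B, against 4.44% of all genes tested. Without replicate 1 at 8 min, the log2 difference at 8 min was -0.13 for RBCS1A, 0.16 for RBCS1B, 0.12 for RBCS2B and -0.12 for RBCS3B, and without replicate 2 it was 0.20, 0.54, 0.57 and 0.21. At 2 min that of RBCS3B ran from -0.03 without replicate 3 in water to 0.10 without replicate 2 at 2 min.

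**Figure D4:**
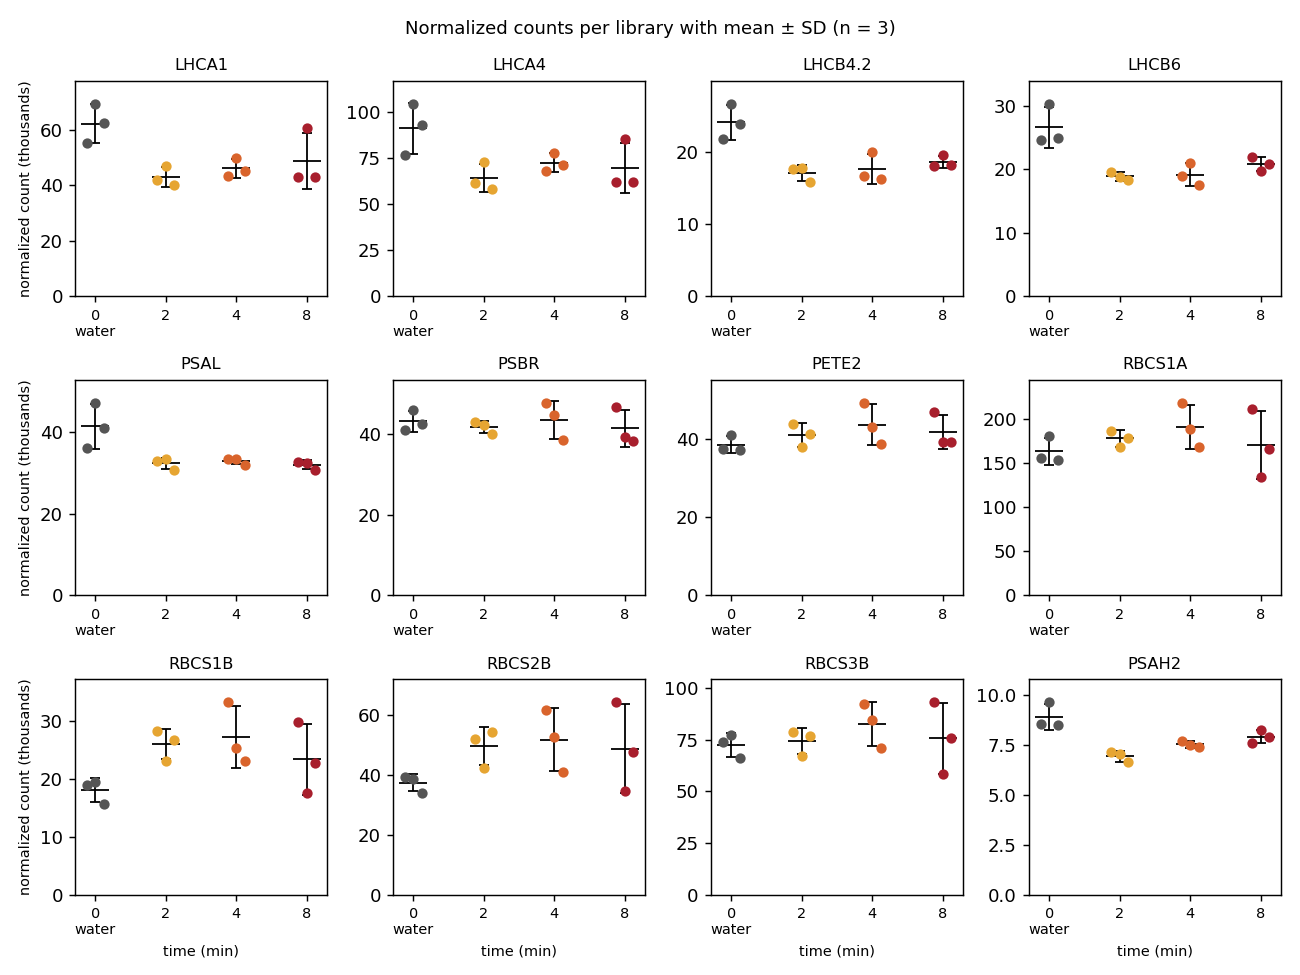
Normalized counts (axes start at 0) of 12 members in each library (points) with mean ± SD (n = 3) at 0 min in water and at 2, 4 and 8 min of 1 mM H2O2. For LHCB6 and PSAL all H2O2 points lie below all water points, and the RBCS points spread most at 8 min.

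Within the RBCS family, the shares of 2 genes overlapped between H2O2 and water and those of the other 2 did not. RBCS1A made up 53.1% to 55.9% of the RBCS counts in H2O2 libraries and 54.2% to 57.2% in water, and RBCS2B 13.5% to 16.1% in H2O2 libraries and 12.2% to 13.6% in water. RBCS1B made up 7.19% to 8.21% of the RBCS counts in H2O2 libraries and 5.83% to 6.59% in water. RBCS3B made up 22.3% to 24.2% in H2O2 libraries and 24.4% to 25.6% in water. Neither of these last 2 shares overlapped, and replicate 2 at 8 min lay with the other H2O2 libraries in both. The 3 genes on chromosome 5 share sequence: 151 of the 886 stretches of 50 bases in the RBCS2B transcript and 184 of the 1161 in that of RBCS3B also occur in that of RBCS1B. How reads that map to several of them were counted is not given in the sources used here, so the split between these genes is uncertain. Their summed normalized count was 115981 to 135654 in water, and 132764 to 159298, 134884 to 187404 and 110633 to 187063 in H2O2 at 2, 4 and 8 min.

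The level of the antenna genes relative to the RBCS genes was taken as the difference of their mean log2 values within each library, which moves when either family does. For LHCA minus RBCS it was -2.25 to -1.49 in H2O2 libraries and -1.69 to -1.44 in water, and only replicate 2 at 8 min overlapped with water. For minor LHCB minus RBCS it was -2.82 to -2.20 in H2O2 libraries and -2.08 to -1.94 in water. The shift was not particular to the antenna genes. For PSA it was -2.67 to -1.95 in H2O2 libraries and -2.03 to -1.83 in water. For PSB it was -1.81 to -1.26 and -1.29 to -1.17, and for PET -2.37 to -1.93 and -2.08 to -2.03. For PSA, PSB and PET, every H2O2 library but replicate 2 at 8 min lay below water. Over the 12 libraries, which share a size factor for all genes of a library, the median Pearson correlation between members was 0.71 among the PSA genes (66 pairs), 0.88 among the RBCS genes (6 pairs), 0.85 between PET and RBCS genes (16 pairs), 0.48 between PSB and RBCS genes (40 pairs), -0.08 between PSA and RBCS genes (48 pairs), -0.17 between minor LHCB and RBCS genes (20 pairs) and -0.34 between LHCA and RBCS genes (24 pairs, from -0.82 to 0.94). Among the LHCA genes it was -0.05 (15 pairs, from -0.54 to 0.98). With the group means removed, the median was 0.31 between minor LHCB and RBCS genes, 0.28 between PSA and RBCS genes and -0.00 between LHCA and RBCS genes. It was then 0.74 between PSB and RBCS genes and 0.89 between PET and RBCS genes. Among the PSA, RBCS and LHCA genes it was 0.55, 0.96 and 0.39.

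**Figure D5:**
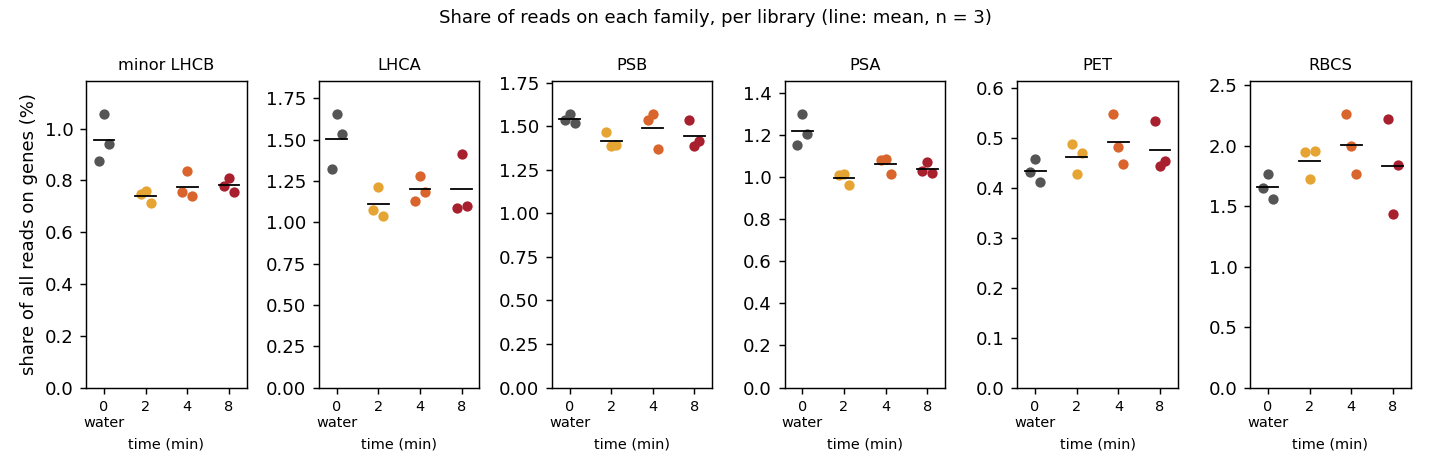
Share of all reads on genes (%, axes start at 0) taken by each family in each library (points) with the mean of 3 libraries (line), at 0 min in water and at 2, 4 and 8 min of 1 mM H2O2. The minor LHCB and PSA points in H2O2 lie below those in water, and the RBCS points overlap.

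No member passed the limma threshold between times of treatment. Of all genes tested, 0.0821% were called higher and 0.0% lower at 4 min against 2 min, 0.626% and 0.0103% at 8 min against 2 min, and 0.0% and 0.0% at 8 min against 4 min. At an unadjusted p under 0.05 from limma, PSAH2 was the 1 member higher at 8 min than at 2 min, against 3.94% of all genes higher and 1.8% lower. The count was 0 for 4 min against 2 min (2.01% and 1.09% of all genes) and for 8 min against 4 min (1.76% and 1.04%). In the same order of comparisons edgeR called 0 members, against 0.652% of all genes higher and 0.0103% lower, 0.077% and 0.0%, and 0.0103% and 0.0%. DESeq2 also called 0, against 0.837% and 0.0411%, 0.2% and 0.0%, and 0.159% and 0.0103%. Between 2 and 4 min, 40 of 41 members had a log2 difference above 0, with a median of 0.09, against 48.7% of all genes tested. The members move together and are not replicates. For each library, the median deviation of the members from their mean over all libraries was taken. It was -0.14 to -0.00 at 2 min and -0.12 to 0.09 at 4 min, so the libraries overlapped. In the F test over the 4 times 0 members passed by limma, against 1.03% of all genes tested, and 15 had an unadjusted p under 0.05, against 10.8%. Over the 4 times edgeR called 0 members, against 1.04% of all genes, and DESeq2 13, against 2.45%.

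Related lists were examined for the direction of the wider pathway. These lists were chosen with earlier results of these data known. Of all genes tested, 49.9%, 47.8% and 49.0% had a log2 difference above 0 at 2, 4 and 8 min. Of 9 genes named for the main antenna trimers (LHCB1 to LHCB3), 8 had values and LHCB1.5 had none. All 8 had a log2 difference below 0 at each time. LHCB2.2 passed at 4 and 8 min (-0.61 and -0.59; adjusted p = 0.0435 and 0.0361 from limma). Of 16 Calvin cycle genes, 0 passed, and all 16 were above 0 at each time, from 0.07 for PGK1 to 0.72 for CP12-2 at 8 min, with medians of 0.19, 0.28 and 0.19. All 3 H2O2 libraries were above all 3 water libraries for 8, 10 and 1 of the 16 at 2, 4 and 8 min. Of all genes tested this held for 9.83%, 10.5% and 8.56%. Of 12 tested genes of chlorophyll synthesis 0 passed, with medians of -0.02, 0.03 and 0.05 and values at 8 min from -0.48 for PORA to 0.29 for DVR. Of 15 other genes of thylakoid electron transport 0 passed, and 13, 14 and 11 were above 0 at 2, 4 and 8 min. Of 16 regulators, GNC, a GATA factor that promotes greening, was higher at 4 min (0.47, adjusted p = 0.0467 from limma) and the others did not pass. Of 10 clock genes 0 passed, with values at 8 min from -0.41 for GI to 0.19 for RVE8.

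Whole seedlings mix organs, and in such libraries fewer cells of a type and less RNA per cell cannot be told apart. Every gene with values had at least 1 read in each library, so that the markers with values did too says nothing about them. A marker at 0 in a library may be missing from the genes with values. Of 10 mesophyll and photorespiration markers named, 9 had values. Of 18 root markers 0 passed by limma, and 13, 14 and 14 were below 0 at 2, 4 and 8 min. Their summed normalized count was 70421 to 83807 in H2O2 libraries and 69515 to 94297 in water, of which BGLU23 made up most. Of 7 shoot epidermis markers 0 passed, and their sum was 21759 to 24346 in H2O2 libraries and 21282 to 25952 in water. Of 9 mesophyll and photorespiration markers 0 passed. All 9 were above 0 at 2 and 4 min and 8 at 8 min, and their sum was 207330 to 343465 in H2O2 libraries and 208756 to 217844 in water. For these lists too, 49.9%, 47.8% and 49.0% of all genes tested were above 0 at 2, 4 and 8 min. The part of these marker differences in the values of the antenna, photosystem and RBCS genes was not tested.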

How the data were processed

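RNA was extracted from 12 seedling samples and made into mRNA libraries with a kit that keeps strand, which were read from a single end. The authors aligned reads to TAIR10 with STAR 2.4.0.1 after FastQC 0.11.7, and used DESeq2 1.20.0. The counting program is not given in the sources used here. The deposited values are a signal: reads per gene that the authors divided by 1 size factor per library. Dividing by the smallest step of each library gave whole reads for 100% of values (tolerance 0.001). The table holds 20972 genes, none of them at 0 in a library. Totals were 13558388 to 26618274 reads per library, and precision is limited by the 3 replicates per group.

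Values were transformed to log2(normalized count + 1), and fold changes are on that scale. The main test was limma 3.58.1 (R 4.3.3) with a variance trend, in 1 fit to 12 libraries, with Benjamini-Hochberg adjustment over the 19485 genes with a mean of at least 10 and a threshold of 0.05. The procedure was tested on simulated data. edgeR 4.0.16 and DESeq2 1.42.0 were run on the recovered reads. The fit was repeated with pseudocounts of 0.1 and 5, without the filter, with a minimum mean of 50, after quantile normalization, with the same total per library, with a replicate block, separately for each comparison, and without each library. Removal of trends with GC content or length, and the leaving out of libraries in the counts of non-overlap, were chosen after seeing the data. Gene models and upstream sequences came from RefSeq's TAIR10.1. Plots used matplotlib 3.10.9.

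Members and lists were chosen with earlier results of these data known. Library values were given for the RBCS genes, for any member past the threshold, for the members with the largest rise and fall in each comparison with 0 min, and for the most abundant member per length in each family. LHCB4.2, PSBQ2 and other members named with values were chosen after their values were seen. Of other lists, genes past the threshold, up to 4 per list, or otherwise those with the largest and smallest change at 8 min, were named. PORA, RVE8 and others given as ends of a range follow the signed value.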

Additional observations from a re-analysis of the deposited data

How the results depend on the processing

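The medians of the members moved by less than the spread between replicates under every alternative run. That spread was the SD of the medians of single libraries, pooled over the 2 groups compared. The SD was 0.08 in water and 0.07, 0.12 and 0.08 at 2, 4 and 8 min. This is a wide margin beside a median of -0.10 at 4 min. With a library left out the medians ran from -0.22 to -0.16 at 2 min, -0.15 to -0.02 at 4 min and -0.21 to -0.12 at 8 min. The number of members called depended on the tool. It was 0 by limma, and DESeq2 on the recovered reads gave 13 at 2 min, 7 at 4 min, 8 at 8 min and 13 among the 4 time points. Quantile normalization and the same total per library each gave 2 at 4 min and 1 among the 4 time points, and removal of the length trend gave 1 at 4 min. In that order, 0.0616%, 0.0667% and 0.145% of all genes tested were called lower at 4 min, against 0.0565% in the main fit. Called higher were 0.842%, 1.14% and 1.0%, against 0.754%. Among the 4 time points the first 2 of these settings called 1.03% and 1.2% of all genes. With a library left out the count of members was 0 to 1 at 4 min and 0 in the other comparisons, and the shares of all genes are not given here. With a replicate block the count was 2 at 4 min, 2 at 8 min and 1 among the 4 time points. The block called 1.83% of all genes higher and 0.385% lower at 4 min, 1.69% and 0.18% at 8 min, and 1.39% among the 4 time points. It thus called more of all genes lower at 4 min than the main fit did. Deviations from the group means in same-numbered libraries had correlations of -0.328 to 0.255 (mean 0.00971), against -0.345 to 0.465 for different numbers. Not every library correlated best with its own number. Pairing by number did not show in these correlations, but they cannot exclude it. The cause of these differences between settings was not tested.

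After quantile normalization the log2 difference of LHCB5 was 0.0010 at 2 min and 0.0716 at 4 min, that of PSBR -0.0158 at 4 min, and that of RBCS1A 0.0000 at each time, since it then takes the same value in each library. With a library left out, PSBR ran from -0.0546 to 0.1003 at 4 min, RBCS1A from -0.1252 to 0.1993 at 8 min, and RBCS3B from -0.0301 to 0.1034 at 2 min and -0.1215 to 0.2125 at 8 min. Removal of the GC trend left 7 members lower at an unadjusted p under 0.05 from limma at 4 min, against 13 in the main fit. The share of all genes after this removal is not given here. With 3 libraries per group the standard errors of single members were 0.07 to 0.32 on the log2 scale, which limits what these tests can detect.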
